A study of Mus musculus with 15 samples.

Results

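The calcium release unit of heart muscle was followed through 10 genes: the calsequestrins Casq1 and Casq2, the ryanodine receptors Ryr1, Ryr2 and Ryr3, and the partners Trdn, Asph, Jph1, Jph2 and Fkbp1b. They were taken by symbol, 10 of the 40174 gene symbols in the count tables, with the aim of setting the skeletal-type isoforms beside the cardiac-type ones. Total RNA was sequenced from the left ventricle of C57BL/6 mice at 2 months of age. Each mutant group carried a point mutation of Rbm20, which encodes an RNA-binding protein that governs the splicing of titin and other muscle transcripts, and the series studies how 2 such mutations act in cardiac remodelling.

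The groups were A-line HOM (Rbm20 S637A -/- in the labels), A-line HET (Rbm20 S637A +/-), G-line HOM (Rbm20 S639G -/-), G-line HET (Rbm20 S639G +/-) and WT. The labels name 3 libraries for each, 15 in all, but 2 columns stood in the tables under both names: replicates 2 and 3 of A-line HOM equalled replicates 2 and 3 of WT in the counts of all 40174 symbols. Both shared libraries were used once, as WT, which left 13 libraries: 1 of A-line HOM and 3 of each other group. Every comparison with WT rests on that choice. For Casq1 the 2 shared libraries held 16.4 and 7.96 counts per 1000000 (CPM), against 341 CPM in A-line HOM replicate 1 and 9.15 CPM in WT replicate 1. The labels do not say that the libraries come from separate animals, so the p-values measure only the spread between these libraries, which may be technical, and they do not say from how many founders each line descends.

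Total counts were 17507813 in the A-line HOM library, 12959087 to 17448328 in A-line HET, 20324529 to 29436407 in G-line HOM, 23714906 to 28121438 in G-line HET and 25279202 to 26549906 in WT. Summed markers of ventricular cardiomyocytes (8 of 8 measured) lay between 137719 and 158425 CPM in the 10 mutant libraries and between 124322 and 145786 CPM in WT, most of it titin (Ttn). Cardiac troponin I (Tnni3) held 1025 to 2300.2 CPM in mutant libraries and 2305 to 2532 CPM in WT. The ventricular light chain Myl2 held 4089 to 5684 CPM and 5549.6 to 7081 CPM in the same order. Of the 8 markers, 3 fell and 0 rose in G-line HOM against WT (edgeR, adjusted p under 0.05), where 26.4% of all genes passed. In G-line HET (7.52%) and A-line HET (7.96%) none passed, and 3 and 2 had an unadjusted p under 0.05. The atrial light chain gene Myl7 was at 3.43 CPM or below except in 3 libraries: the third A-line HET library had 240 CPM, the first G-line HOM library 45.8 CPM and the second WT library 524 CPM. The same 3 libraries had 118 to 181 CPM of the smooth muscle myosin gene Myh11, against 25.7 to 49.7 CPM in the rest. G-line HOM replicate 1 and A-line HET replicate 2 were set apart by clock genes.

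In heart muscle, calcium entering through the L-type channel of the cell membrane opens ryanodine receptor 2 on the sarcoplasmic reticulum, and the calcium released there drives contraction. Calsequestrin stores calcium inside the reticulum next to the receptor, triadin and junctin tie it to the channel, and junctophilins hold the reticulum against the surface membrane. Skeletal muscle runs the same unit with other isoforms: ryanodine receptor 1, mostly calsequestrin 1, junctophilin 1 beside junctophilin 2, and the channel subunit encoded by Cacna1s.

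The counts turn first on the 2 calsequestrin genes and on Ryr1. Their promoters are shown here as RefSeq gives them on GRCm38.p6, from 250 bases before the annotated start to 50 after it, each on its gene's own strand, with capitals on E-boxes (CANNTG on either strand), the motif that basic helix-loop-helix factors of muscle recognise.
Casq1: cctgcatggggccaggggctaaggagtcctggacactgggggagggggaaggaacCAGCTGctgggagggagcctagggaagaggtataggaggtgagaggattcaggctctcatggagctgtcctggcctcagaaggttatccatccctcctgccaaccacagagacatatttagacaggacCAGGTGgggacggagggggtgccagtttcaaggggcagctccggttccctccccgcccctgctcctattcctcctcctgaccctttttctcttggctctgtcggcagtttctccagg
Casq2: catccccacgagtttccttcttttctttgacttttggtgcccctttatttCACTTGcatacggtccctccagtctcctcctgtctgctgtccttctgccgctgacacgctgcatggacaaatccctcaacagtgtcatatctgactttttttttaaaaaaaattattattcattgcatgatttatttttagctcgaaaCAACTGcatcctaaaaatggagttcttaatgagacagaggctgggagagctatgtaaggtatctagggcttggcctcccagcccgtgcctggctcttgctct
Ryr1: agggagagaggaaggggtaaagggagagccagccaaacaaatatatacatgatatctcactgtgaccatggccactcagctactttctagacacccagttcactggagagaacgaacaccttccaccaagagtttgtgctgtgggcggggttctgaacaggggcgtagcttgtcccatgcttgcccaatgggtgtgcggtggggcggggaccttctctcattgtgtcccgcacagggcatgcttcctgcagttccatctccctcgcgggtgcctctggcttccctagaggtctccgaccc
Casq1 lies on chromosome 1, Casq2 on chromosome 3 and Ryr1 on chromosome 7. The E-boxes of Casq1 begin at positions -195 and -67 and those of Casq2 at positions -200 and -52, counted from the start. The Ryr1 window holds none of these letters, and that of Ryr2 holds 2. An E-box occurs in 72.3% of the 32544 promoters of that table, so that holding one sets neither gene apart. The letters CTANNNNTAG, a narrow form of a MEF2-type site (in 3.7% of promoters), were not found on either strand of the 4 windows. Those of an M-CAT core (CATTCC, in 14.6%) were not found either, and the motifs do not overlap in the windows. Other forms of a MEF2-type site were not searched for, so their absence is not shown. The Casq2 window holds ttatttttag, which differs from CTANNNNTAG in its first letter only. How many promoters hold that form was not counted. The table held promoters for 6 of the 10 genes.

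Casq1, the skeletal-type calsequestrin, was the gene of the unit that differed from WT in every mutant group. The A-line HOM library held 341 CPM. The A-line HET libraries held 221, 351 and 233 CPM, the G-line HOM libraries 267, 264 and 364 CPM and the G-line HET libraries 325, 255 and 240 CPM. The WT libraries held 9.15, 16.4 and 7.96 CPM. The lowest mutant library was thus far above the highest WT library, while the mutant groups overlapped one another.

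In the fit over all 13 libraries with edgeR's quasi-likelihood test, adjusted by Benjamini-Hochberg over 17588 genes, Casq1 rose by 4.93 ± 0.36 (log2, SE) in A-line HOM, adjusted p = 9.78e-05, which is 30.4-fold with a 95% interval of 17.5 to 52.9. It rose by 4.58 ± 0.32 in A-line HET (adjusted p = 4.66e-05), by 4.74 ± 0.32 in G-line HOM (adjusted p = 1.16e-05) and by 4.61 ± 0.32 in G-line HET (adjusted p = 4.78e-05). These 4 comparisons share the WT libraries. A second mutated copy was not accompanied by a difference past the threshold. G-line HOM against G-line HET gave 0.13 with an interval of -0.47 to 0.72 (adjusted p = 0.796) and A-line HOM against A-line HET gave 0.34 with an interval of -0.48 to 1.17 (adjusted p = 0.999). The 2 heterozygous lines differed by -0.03, with an interval of -0.62 to 0.57 for A-line HET over G-line HET (adjusted p = 0.977). These intervals are narrow beside the distance of every mutant group from WT.

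With the shared libraries counted as A-line HOM, a single WT library remained: Casq1 then gave 5.03 in G-line HOM (adjusted p = 0.191), 4.90 in G-line HET (adjusted p = 0.364) and 4.87 in A-line HET, which did not pass the threshold either, and A-line HOM gave 3.73 (adjusted p = 0.986). With only A-line HOM and WT in the fit, A-line HOM gave 4.92 with an adjusted p of 0.0523. Leaving out any 1 library, the 3 libraries with atrial transcripts or the 2 set apart by clock genes kept Casq1 past the threshold in each comparison with WT that could still be made.

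**Figure D1:**
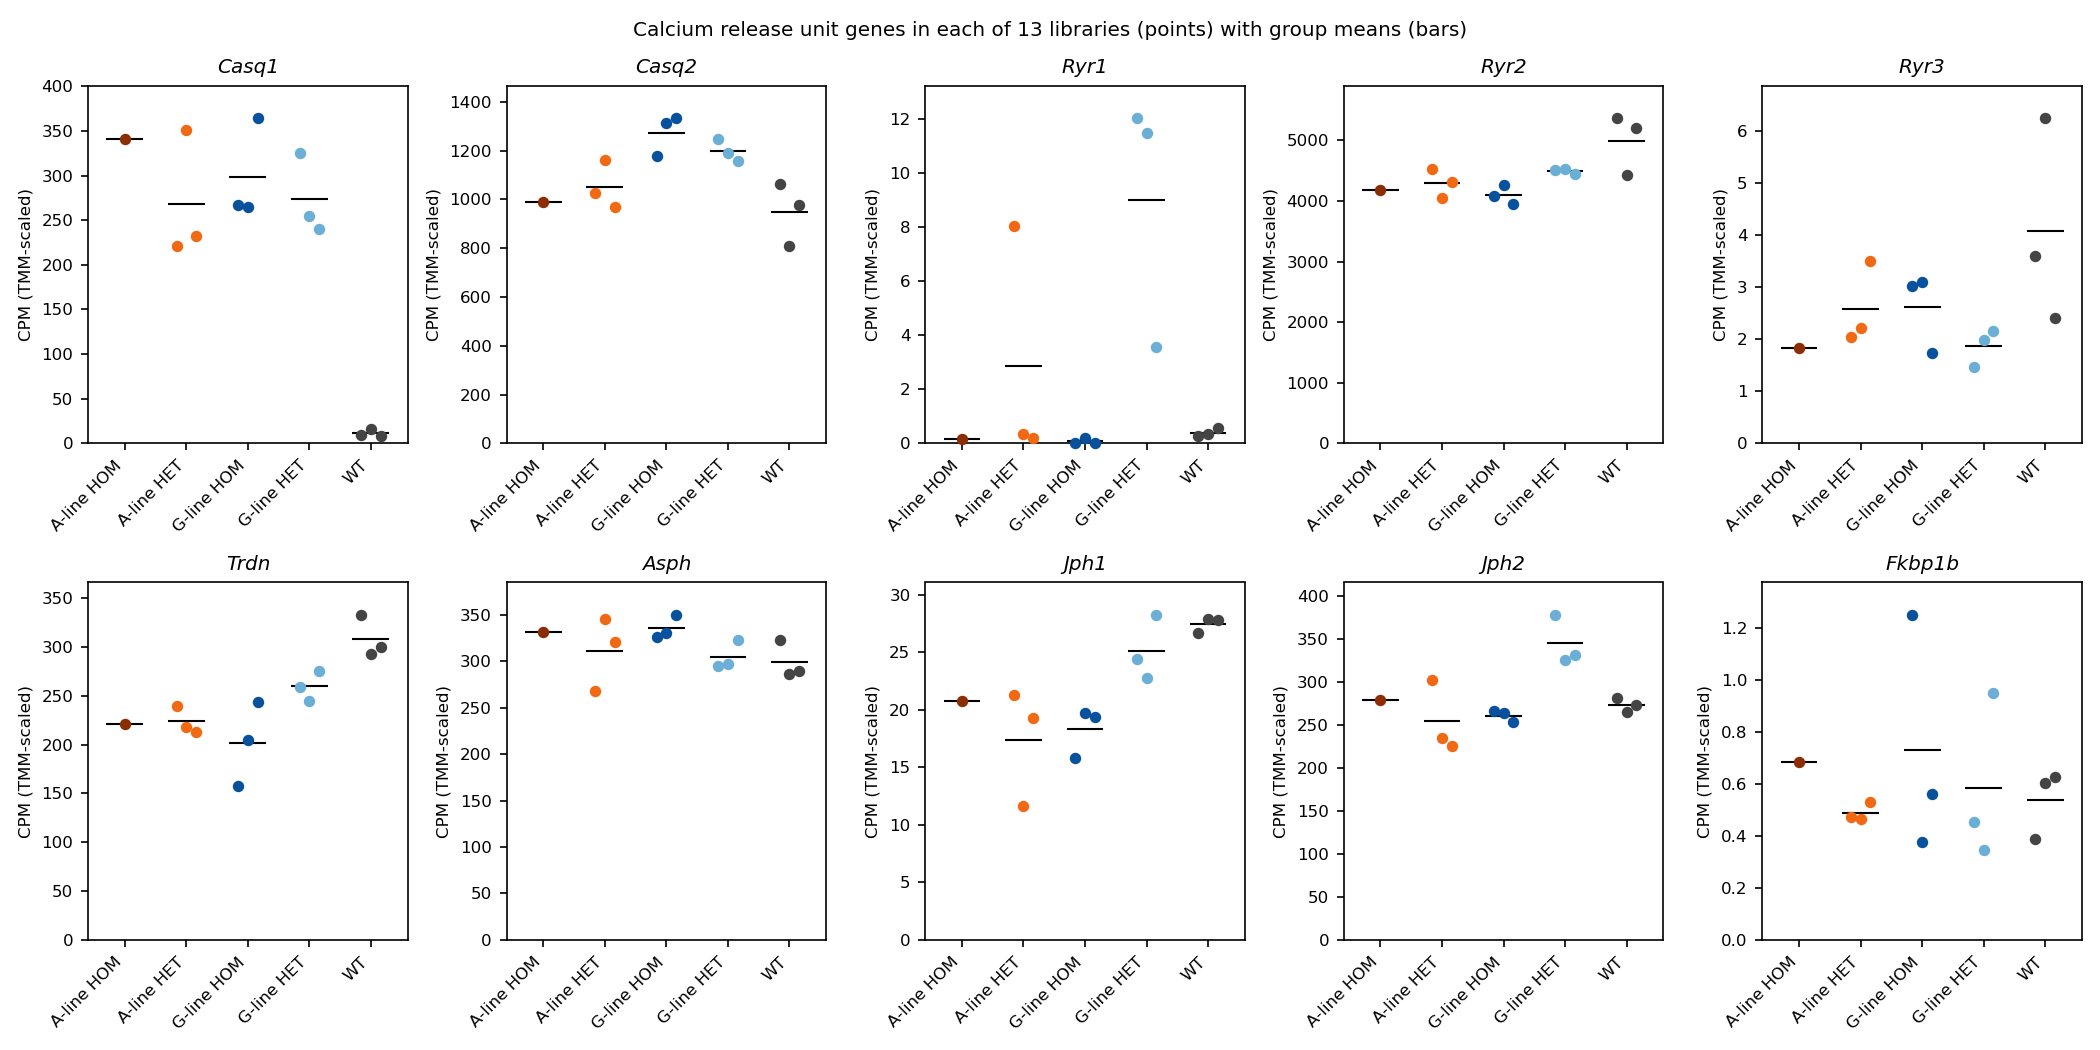
Level of the 10 calcium release unit genes in CPM (linear axes that start at 0), with 1 point for each of the 13 libraries and a bar at each group's mean. Casq1 lies between 221 and 364 CPM in all 10 mutant libraries and at 16.4 CPM or below in WT. Ryr1 stands clear of 0 in the 3 G-line HET libraries and in 1 A-line HET library.

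Casq2, the calsequestrin of the heart, remained the more abundant of the pair in every library. It stood at 987 CPM in A-line HOM, at 1052 ± 98.1 CPM in A-line HET, at 1273 ± 83.2 CPM in G-line HOM, at 1197 ± 46.6 CPM in G-line HET and at 950 ± 127 CPM in WT (SD, n = 3 except A-line HOM). The G-line HOM libraries (1178, 1311 and 1331 CPM) and the G-line HET libraries (1248, 1189 and 1156 CPM) all lay above the WT libraries (1061, 811 and 978 CPM), and A-line HET overlapped WT. Casq2 rose by 0.42 ± 0.11 in G-line HOM (edgeR, adjusted p = 0.0110). The difference was 0.33 in G-line HET (adjusted p = 0.0831), 0.15 in A-line HET (adjusted p = 0.484) and 0.06 in A-line HOM (adjusted p = 0.896). The G-line HOM call was lost without WT replicate 2 and, with 0.26 and an adjusted p of 0.298, without both shared libraries.

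Set against each other, the 2 calsequestrins changed in balance within each library, a measure that does not depend on scaling between libraries. Casq1 made up 25.7% of the Casq1 and Casq2 counts in A-line HOM, 20.1% ± 2.85 in A-line HET, 18.9% ± 2.37 in G-line HOM, 18.5% ± 1.89 in G-line HET and 1.21% ± 0.665 in WT (SD, n = 3). The range was 16.8% to 25.7% over the 10 mutant libraries and 0.808% to 1.98% over the WT libraries. Per kilobase of exon, with lengths of 1.951 kb for Casq1 and 2.736 kb for Casq2 in GENCODE's GRCm38 annotation, the Casq1 share was 22.0% to 32.6% in mutant libraries and 1.13% to 2.76% in WT. Casq2 per kilobase was 2.07 times Casq1 in A-line HOM, 2.80 times in A-line HET, 3.04 times in G-line HOM and 3.13 times in G-line HET, against 60.7 times in WT. The sum of both per kilobase was 536, 522, 619 and 578 CPM per kb in those mutant groups and 353 CPM per kb in WT.

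The log2 odds of Casq1 against Casq2 counts were 4.44 higher in the 10 mutant libraries than in the 3 WT libraries. A two-sided exact permutation test over libraries gave p = 0.00699, the smallest it can give, and an adjusted p of 0.0635 over the 20 share tests made. The groups did not overlap. With 3 libraries against 3 no such test can go below 0.1, the value that each HET or HOM group of 3 gave against WT. HOM libraries of both lines differed from HET libraries of both lines by 0.11 in log2 odds (exact permutation p = 0.552).

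**Figure D2:**
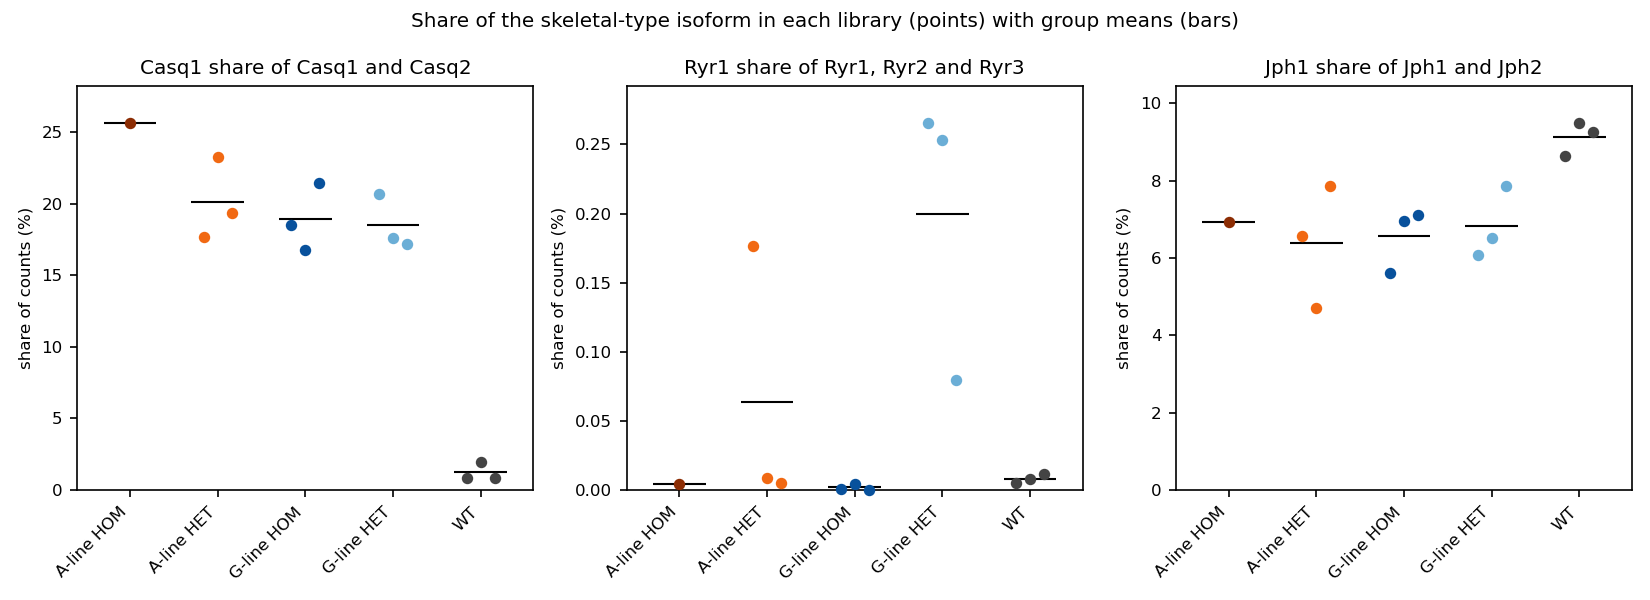
Share of the skeletal-type isoform in the counts of its family, in percent, with 1 point for each library and a bar at the group mean. Casq1 makes up 16.8% to 25.7% of calsequestrin counts in mutant libraries and at most 1.98% in WT. The Ryr1 share stays at or below 0.266%, and the Jph1 share is lower in all 10 mutant libraries than in WT.

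Among the ryanodine receptors, Ryr2, the release channel of the heart, made up nearly all counts in every library. It stood at 4181 CPM in A-line HOM. The A-line HET libraries held 4535, 4056 and 4316 CPM, the G-line HOM libraries 4085, 4273 and 3959 CPM, the G-line HET libraries 4513, 4526 and 4446 CPM and the WT libraries 5362, 4427 and 5200 CPM. WT replicate 2 lay within the range of the mutant libraries, while the other two WT libraries lay above it. Ryr2 fell by 0.28 ± 0.10 in G-line HOM (edgeR, adjusted p = 0.0465), a value close to the threshold. That call was lost when any of 9 libraries was left out, namely each G-line HOM and each G-line HET library, A-line HET replicate 2 and WT replicates 1 and 3. The difference was -0.26 in A-line HOM (adjusted p = 0.357), -0.22 in A-line HET (adjusted p = 0.215) and -0.15 in G-line HET (adjusted p = 0.398).

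Ryr1, the release channel of skeletal muscle, did not follow Casq1. The A-line HOM library held 3 counts. The A-line HET libraries held 102, 6 and 4 counts, the G-line HOM libraries 1, 4 and 0, the G-line HET libraries 318, 266 and 97 and the WT libraries 6, 9 and 14. In CPM the G-line HET libraries stood at 12.03, 11.5 and 3.55 and A-line HET replicate 1 at 8.04, while the other 9 libraries lay between 0 and 0.584. Transcripts of Ryr1 were thus counted above the WT level in 4 of 6 heterozygous libraries and in none of the 4 homozygous ones. Summed markers of the conduction system (6 genes) were also higher in the heterozygous groups: 41.3 CPM in A-line HOM, 59.7 to 79.7 CPM in A-line HET, 30.2 to 51.6 CPM in G-line HOM and 91.8 to 115 CPM in G-line HET, against 28.9 to 31.2 CPM in WT. Of the 5 that could be tested against WT, 2 rose in G-line HET, where 7.52% of all genes passed in either direction. In A-line HET 1 rose (7.96% of all genes passed), in G-line HOM 1 rose (26.4%) and in A-line HOM none passed (4.68%). Between the G-line groups 2 were lower in G-line HOM, where 14.6% of all genes passed. The median of the 5 was -0.12 there, beside 0.04 over all genes, so the sums rest on a few genes. The sums also did not follow Ryr1 library by library. A-line HET replicates 2 and 3 had sums within 59.7 to 79.7 CPM but held 0.350 and 0.213 CPM of Ryr1. The A-line HOM library had a sum of 41.3 CPM, above WT, with 0.171 CPM of Ryr1. Isl1 was at 0 in 10 of the 13 libraries, and the part of conduction system cells in the Ryr1 values was not tested.

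Ryr1 fell by 6.94 ± 1.60 (log2, SE) in G-line HOM against G-line HET (edgeR, adjusted p = 0.0229). That fold depends on 5 counts in G-line HOM, so its size is uncertain, with an interval of -10.57 to -3.31. The call was lost, at adjusted p of 0.0527 to 0.0861, without G-line HET replicate 1 or 2 or any G-line HOM replicate, at 0.05 without the shared libraries, at 0.0776 without the atrial libraries and at 0.0676 without the clock libraries. Against WT, G-line HET gave 4.50 ± 1.25 (adjusted p = 0.0654), which passed the threshold under DESeq2 (adjusted p = 0.00840), with only the 2 groups in the fit (adjusted p = 0.00650) and without A-line HET replicate 1 (adjusted p = 0.000682), 2 (adjusted p = 0.0455) or 3 (adjusted p = 0.0373). A-line HET gave 2.76 ± 1.31 (adjusted p = 0.262), a value that 1 library decides: without A-line HET replicate 1 it was -0.49 (adjusted p = 0.786). Without that library, A-line HET also gave -4.99 against G-line HET (adjusted p = 0.00776), beside -1.74 with it (adjusted p = 0.509). G-line HOM gave -2.44 (adjusted p = 0.449) and A-line HOM -1.17 (adjusted p = 0.880) against WT, both from a few counts.

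The Ryr1 share of all ryanodine receptor counts was 0.00410% in A-line HOM, at most 0.00441% in G-line HOM and 0.0798% to 0.266% in G-line HET. It was 0.00480% to 0.0112% in WT. The A-line HET libraries held 0.177%, 0.00862% and 0.00492%, and only the first of these lay above the WT range. In log2 odds the 4 HOM libraries differed from the 6 HET libraries of both lines by -4.92. The highest HOM library, at -14.30, lay just below the lowest HET library, at -14.14, each with 4 counts of Ryr1. A two-sided exact permutation test gave p = 0.00952, the smallest it can give, and 0.0635 after adjustment over the 20 share tests. Per kilobase, Ryr2 was still 378 times Ryr1 in G-line HET, where Ryr1 was highest.

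Ryr3, a low-level receptor of many tissues, had 26 to 165 counts in each library. Its level was 1.83 CPM in A-line HOM, 2.59 ± 0.800 CPM in A-line HET, 2.63 ± 0.771 CPM in G-line HOM, 1.87 ± 0.357 CPM in G-line HET and 4.09 ± 1.96 CPM in WT (SD, n = 3). The highest WT value, 6.24 CPM, came from replicate 2, 1 of the 3 libraries with atrial and smooth muscle transcripts, and the other two of those libraries held 3.51 and 3.03 CPM. No comparison of Ryr3 passed the threshold. G-line HET against WT came nearest, with -1.13 (edgeR, adjusted p = 0.0625), and gave -0.68 (adjusted p = 0.206) without those 3 libraries.

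The skeletal-type isoforms were set beside 12 markers of fast skeletal fibres. Summed, the markers reached 495 CPM in A-line HOM, 305 to 543 CPM in A-line HET, 458 to 583 CPM in G-line HOM and 420 to 527 CPM in G-line HET, against 59.0 to 103 CPM in WT. The sum moved with Casq1, and its part in the Casq1 result was not tested. Of the 6 markers that could be tested against WT, 1 rose and 1 fell in A-line HOM, where 4.68% of all genes passed. In A-line HET 4 rose and 1 fell (7.96% of all genes passed). In each of G-line HOM (26.4%) and G-line HET (7.52%) 3 rose and 1 fell. The fast myosin heavy chains Myh1, Myh2 and Myh4 and the fast light chain Mylpf together gave 0 to 1.51 CPM in any library, a set of 4 myosin genes picked out after their values were seen. Mylpf was at 0 in 9 of the 13 libraries. Most of the sum came from Mybpc2 and Myl1. In bulk tissue, more cells of a type and more RNA per cell cannot be told apart.

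Within that list the genes went different ways. Mybpc2, which encodes fast myosin-binding protein C, held 135 to 375 CPM in mutant libraries and 15.7 to 34.7 CPM in WT. Tnni2, fast troponin I, held 20 to 37 CPM in HET libraries, 0.52 to 6.9 CPM in HOM libraries and 0.56 to 1.7 CPM in WT. Tnnt3, fast troponin T, held 1.42 to 11.9 CPM in mutant libraries and 0.227 to 0.301 CPM in WT. Cacna1s, whose channel opens Ryr1 in skeletal muscle, went against Casq1: it held 0.219 to 0.610 CPM in G-line HOM and 2.95 to 5.24 CPM in G-line HET, against 11.8 to 13.2 CPM in WT.

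**Figure D3:**
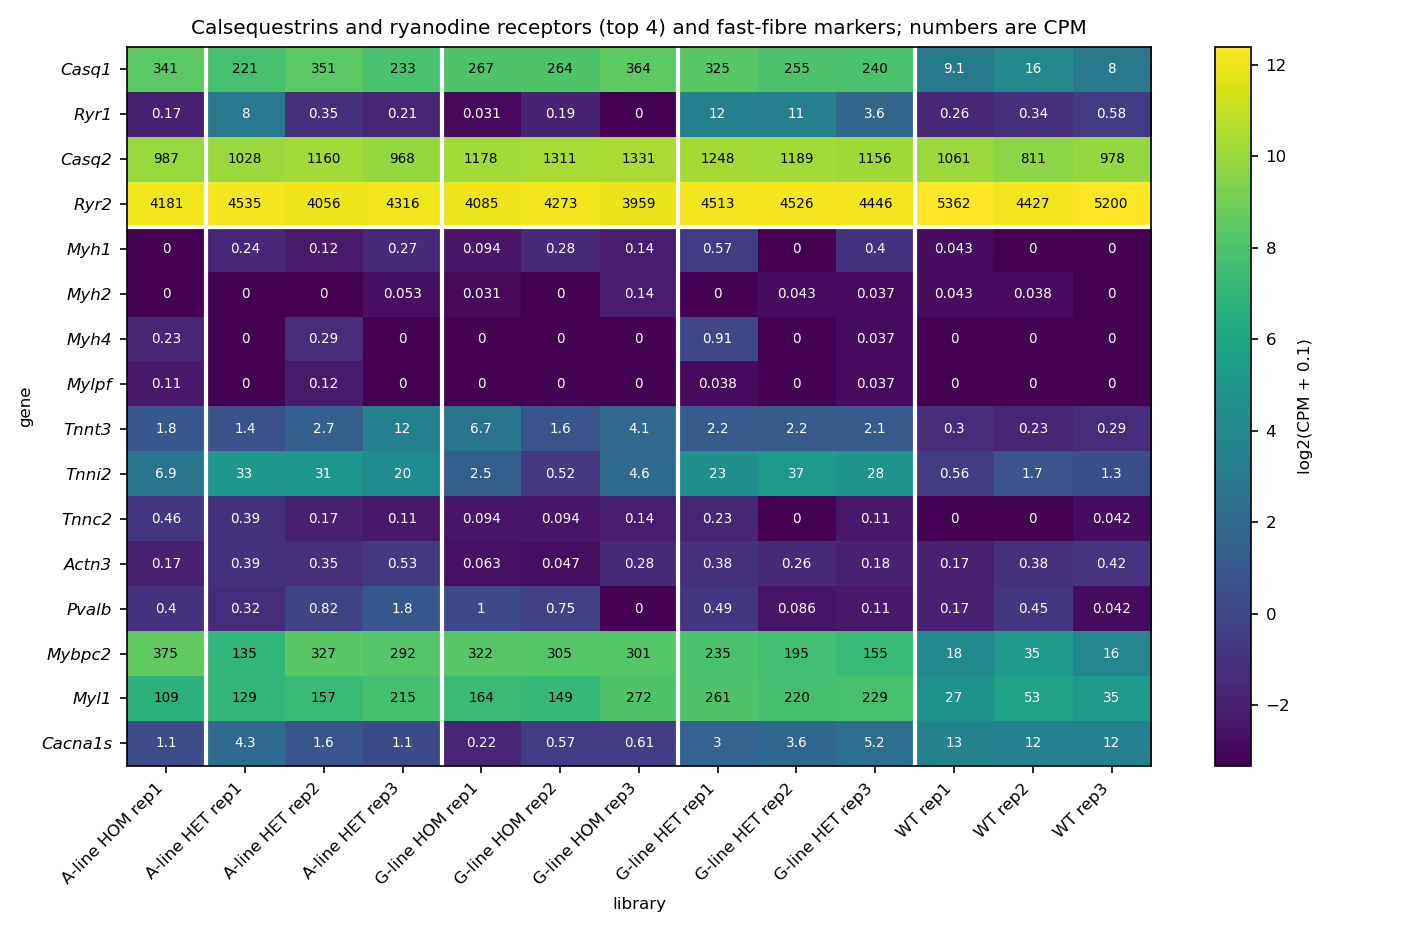
Heat map of the 4 calsequestrin and ryanodine receptor genes named at the top and of 12 markers of fast skeletal fibres below the white line, over the 13 libraries. Colour gives log2(CPM + 0.1), the numbers give CPM, and white lines part the groups. Myh1, Myh2, Myh4 and Mylpf stay at 0.91 CPM or below in every library, while Casq1, Mybpc2 and Myl1 are higher in all 10 mutant libraries than in WT.

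Of the proteins that link calsequestrin to the receptor, triadin fell and the Asph total did not pass the test. Trdn, whose product anchors calsequestrin at the receptor, held 221 CPM in A-line HOM. It held 240, 218 and 213 CPM in A-line HET, 157, 205 and 244 CPM in G-line HOM, 259, 245 and 275 CPM in G-line HET and 333, 293 and 300 CPM in WT. Every mutant library lay below every WT library. Trdn fell by 0.61 ± 0.13 in G-line HOM (edgeR, adjusted p = 0.00279) and by 0.46 ± 0.13 in A-line HET (adjusted p = 0.0390). A-line HOM gave -0.48 (adjusted p = 0.172) and G-line HET -0.25 (adjusted p = 0.272), and G-line HOM gave -0.36 against G-line HET (adjusted p = 0.0716).

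The A-line HET call of Trdn was lost when WT replicates 1, 2 or 3, A-line HET replicates 2 or 3, any G-line HET replicate or G-line HOM replicate 2 was left out, and also without the atrial libraries (-0.46, adjusted p = 0.0503). The G-line HOM call was kept in all of these, and was lost with the shared libraries as A-line HOM (adjusted p = 0.0534). Asph gives rise to an enzyme, to junctin and to junctate, and a gene total does not part them. Its level was 331 CPM in A-line HOM, 312 ± 39.8 CPM in A-line HET, 336 ± 12.8 CPM in G-line HOM, 305 ± 15.7 CPM in G-line HET and 300 ± 19.9 CPM in WT (SD, n = 3). Its largest difference from WT was 0.16 in G-line HOM, with an interval of -0.05 to 0.38 (adjusted p = 0.255).

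The junctophilins, which bridge the reticulum and the surface membrane, behaved differently from each other. Jph1, the one prominent in skeletal muscle, held 20.8 CPM in A-line HOM. It held 21.3, 11.6 and 19.3 CPM in A-line HET, 15.8, 19.7 and 19.4 CPM in G-line HOM, 24.4, 22.8 and 28.2 CPM in G-line HET and 26.7, 27.9 and 27.9 CPM in WT. A-line HET and G-line HOM lay wholly below WT, and G-line HET overlapped it. Jph1 fell by 0.66 ± 0.18 in A-line HET (edgeR, adjusted p = 0.0331) and by 0.59 ± 0.17 in G-line HOM (adjusted p = 0.0219).

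A-line HOM gave -0.40 (adjusted p = 0.432) and G-line HET -0.13 (adjusted p = 0.727) for Jph1. The G-line HOM call was lost without G-line HOM replicate 1 or WT replicate 2 or 3, and without the atrial libraries (-0.47, adjusted p = 0.156). The A-line HET call was lost without A-line HET replicate 2 or 3 or any WT replicate, and without the atrial libraries (-0.74, adjusted p = 0.0991). A-line HET gave -0.54 against G-line HET (adjusted p = 0.227).

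Jph2, the junctophilin of the heart, was higher in G-line HET than in G-line HOM. It held 279 CPM in A-line HOM, 302, 235 and 226 CPM in A-line HET, 266, 264 and 254 CPM in G-line HOM, 378, 326 and 332 CPM in G-line HET and 282, 265 and 273 CPM in WT. All 3 G-line HET libraries lay above every library of the other 4 groups. Jph2 fell by 0.40 ± 0.11 in G-line HOM against G-line HET (edgeR, adjusted p = 0.0231), a call lost without G-line HET replicate 1, G-line HOM replicate 1 or 2 or the clock libraries (-0.41, adjusted p = 0.0533 in that last case). G-line HET gave 0.34 against WT (adjusted p = 0.0714), and A-line HET gave -0.44 against G-line HET (adjusted p = 0.143).

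Jph1 made up 6.94% of junctophilin counts in A-line HOM, 6.38% ± 1.58 in A-line HET, 6.56% ± 0.821 in G-line HOM, 6.81% ± 0.926 in G-line HET and 9.13% ± 0.440 in WT (SD, n = 3). The share of the skeletal-type isoform was thus lower for junctophilins in all 10 mutant libraries, the opposite direction to calsequestrin. In log2 odds the difference from WT was -0.52, with an exact permutation p of 0.00699, the smallest possible, and 0.0635 after adjustment. Fkbp1b, which encodes calstabin 2, the small binding protein of Ryr2, had 6 to 40 counts and 0.345 to 1.25 CPM in each library. At this depth no difference was detectable: G-line HOM against WT gave 0.47 with an interval of -0.59 to 1.53 (adjusted p = 0.532).

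**Figure D4:**
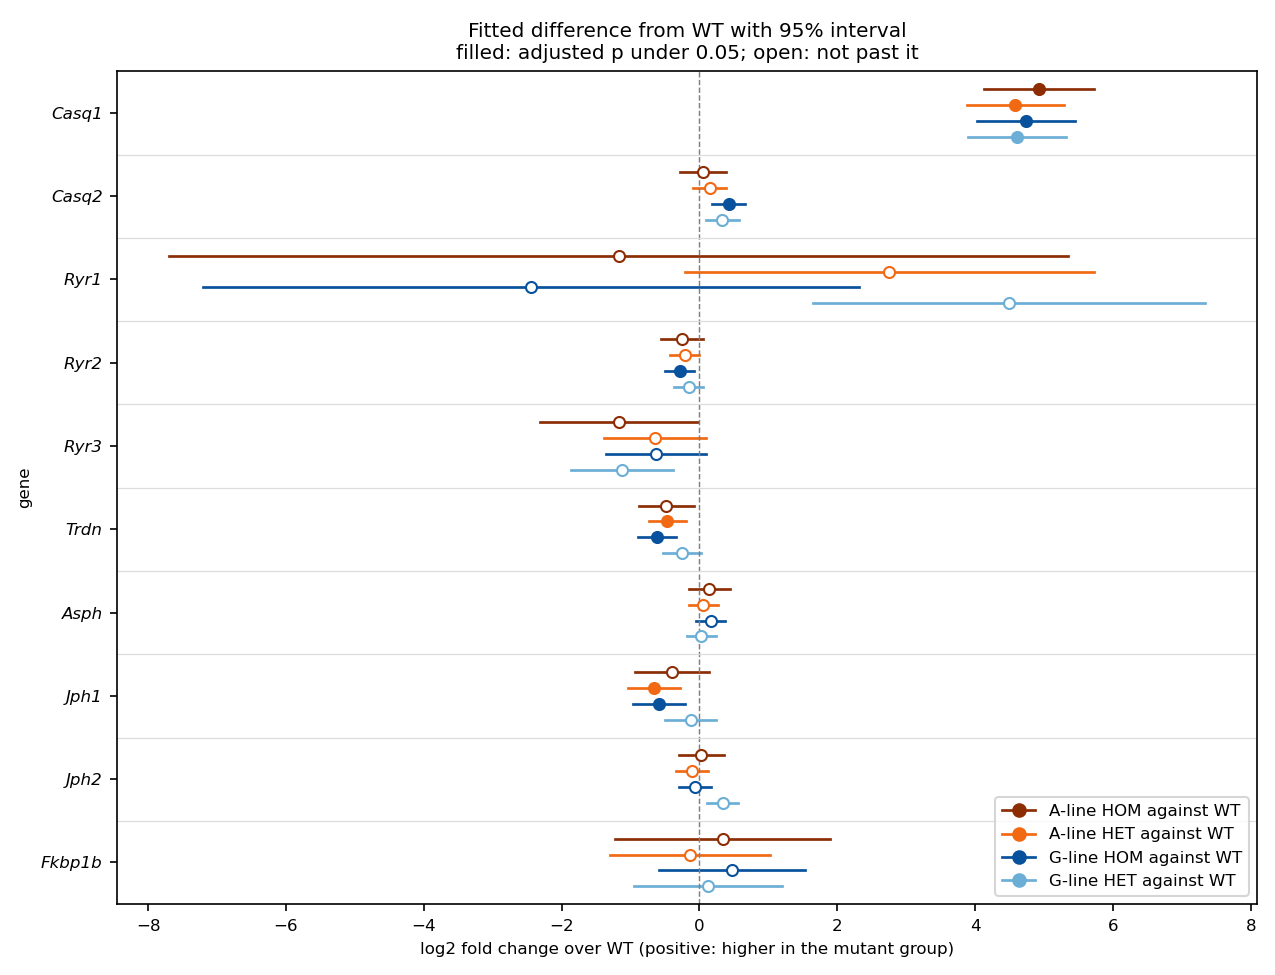
Fitted log2 fold change of each gene over WT in the 4 mutant groups (points, filled where the adjusted p is under 0.05) with its 95% interval (lines). Casq1 lies between 4.58 and 4.93 in all 4 groups. The Ryr1 intervals are the widest, and Casq2, Ryr2, Trdn and Jph1 pass the test in some groups only.

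Counted over the unit, 5 of the 10 genes passed the threshold in G-line HOM against WT (Casq1 and Casq2 higher, Ryr2, Trdn and Jph1 lower), where 26.4% of all genes tested did. In A-line HET against WT 3 passed (Casq1 higher, Trdn and Jph1 lower), against 7.96% of all genes. Casq1 alone passed in G-line HET against WT (7.52% of all genes) and in A-line HOM against WT (4.68%). Between G-line HOM and G-line HET 2 passed, Ryr1 and Jph2, both lower in G-line HOM, where 14.6% of all genes passed.

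No gene of the unit passed in A-line HOM against A-line HET, where 0.0227% of all genes did, none had an unadjusted p under 0.05 and DESeq2 called none. None passed in A-line HET against G-line HET either (0.0284% of all genes), where 2 had an unadjusted p under 0.05 and DESeq2 called 1, Jph2. All 10 genes passed the filter on low counts.

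Around the unit, 53 other genes of the dyad and of reticulum calcium cycling were counted, of which 51 could be tested. In G-line HOM against WT 20 fell and 6 rose, with a median of -0.30 over the list beside 0.01 over all genes. Of all 17588 genes tested 26.4% passed in that comparison, 2334 lower and 2306 higher. In A-line HET 12 fell and 2 rose (7.96% of all genes passed, 699 lower and 701 higher), in A-line HOM 7 fell and none rose (4.68%, 327 lower and 496 higher), and in G-line HET 6 fell and 2 rose (7.52%, 623 lower and 699 higher). G-line HOM lay below G-line HET in 15 genes and above it in 2, where 14.6% of all genes passed, 1481 lower and 1094 higher. None passed in A-line HOM against A-line HET, where 1 had an unadjusted p under 0.05, or in A-line HET against G-line HET, where 9 had.

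By role, 4 of 5 L-type channel genes, 4 of 5 genes of the reticulum lumen, 5 of 8 genes of membrane architecture, 10 of 20 receptor partners, 2 of 4 pump regulators, 1 of 6 exchanger and pump genes and 0 of 3 other release channels passed in G-line HOM against WT, beside 26.4% of all genes tested. Of the other release channels 1 had an unadjusted p under 0.05. The list was chosen with results of these data known, so its direction is a description.

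The trimeric cation channel gene Tmem38a, which carries the counter-current to calcium release, held 193 CPM in A-line HOM, 205 ± 46.6 CPM in A-line HET, 157 ± 16.7 CPM in G-line HOM, 282 ± 4.09 CPM in G-line HET and 353 ± 18.4 CPM in WT (SD, n = 3). It fell by 1.16 ± 0.13 in G-line HOM (edgeR, adjusted p = 4.03e-05) and by 0.78 ± 0.13 in A-line HET (adjusted p = 0.00251). G-line HET gave -0.32 (adjusted p = 0.151), and the lone A-line HOM library gave -0.87. Tmem38a also fell by 0.84 ± 0.13 in G-line HOM against G-line HET (adjusted p = 0.00201). Ank2, which places exchangers and pumps at the transverse tubule, fell by 0.91 ± 0.12 in G-line HOM (adjusted p = 9.86e-05). Ank1, whose small form links the reticulum to the sarcomere, fell by 0.84 ± 0.11 there (adjusted p = 0.00011). In A-line HET, Ank2 gave -0.42 (adjusted p = 0.0392), a call kept in 10 of 25 alternatives, and Ank1 gave -0.37 (adjusted p = 0.0572).

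Cacna1s fell in every mutant group, by 3.51 ± 0.72 in A-line HOM (adjusted p = 0.0177), 2.46 ± 0.42 in A-line HET (adjusted p = 0.00436), 4.79 ± 0.49 in G-line HOM (adjusted p = 4.28e-05) and 1.65 ± 0.39 in G-line HET (adjusted p = 0.0229). The reticulum chaperones Calr and Canx also fell in all 4 groups, Canx by 0.54, 0.47, 0.43 and 0.38 in the same order (adjusted p = 0.0431, 0.00860, 0.00448 and 0.0294) and Calr by 0.75, 0.47, 0.33 and 0.36 (adjusted p = 0.0105, 0.0111, 0.0260 and 0.0419). These calls were not all stable: Canx in A-line HOM passed in 12 of 24 alternatives and Calr in G-line HET in 13 of 25. Cacna1s passed in 20 of 24 in A-line HOM, 22 of 25 in A-line HET, 25 of 25 in G-line HOM and 16 of 25 in G-line HET. The pump gene Atp2a2 fell by 1.32 ± 0.17 in G-line HOM (adjusted p = 0.000102) and by 0.87 ± 0.17 in A-line HET (adjusted p = 0.00663). G-line HET gave -0.56 for Atp2a2 (adjusted p = 0.0611), and the lone A-line HOM library gave -0.96. Strit1, which encodes a micropeptide that activates the pump, had 1 count in A-line HOM and none in the other 9 mutant libraries, against 409 counts over the 3 WT libraries.

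Of the 6 genes of the list that rose in G-line HOM, Fkbp1a and Sdf4 were among the 8 with the smallest adjusted p. Fkbp1a, which encodes calstabin 1, the binding protein typical of Ryr1 and also found on Ryr2, held 79.3, 77.3 and 71.3 CPM in G-line HOM and 66.6, 64.2 and 54.4 CPM in G-line HET, against 48.4, 46.4 and 48.7 CPM in WT. It rose by 0.67 ± 0.09 in G-line HOM (edgeR, adjusted p = 0.000117) and by 0.37 ± 0.09 in G-line HET (adjusted p = 0.0217), and G-line HOM exceeded G-line HET by 0.30 ± 0.09 (adjusted p = 0.0360). Sdf4, a calcium-binding protein of the secretory pathway, rose by 0.80 ± 0.11 in G-line HOM (adjusted p = 0.000189). In A-line HET it rose by 0.43 ± 0.11 (adjusted p = 0.0314).

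The genes whose pattern over the 13 libraries was most like that of Casq1 were Mybpc2, Nos1, Mgat5b, Mylk2 and Nppa, of 12377 compared. Likeness was the root mean square difference of log2 CPM after centring each gene on its WT mean, from 1.07 for Mybpc2 to 1.25 for Nppa. Nos1, neuronal nitric oxide synthase, held 1.34 to 5.36 CPM in mutant libraries and 0 to 0.492 CPM in WT. Mylk2, the myosin light chain kinase of skeletal muscle, held 0.907 to 7.21 CPM in mutant libraries and 0.0417 to 0.0859 CPM in WT. Nppa, unlike Casq1, overlapped WT. It held 1194 CPM in WT replicate 2, against 936 CPM in A-line HET replicate 1 and 962 CPM in G-line HET replicate 2. Nppa passed against WT in G-line HOM (edgeR, adjusted p = 0.0462), but not in G-line HET (adjusted p = 0.292) or A-line HET (adjusted p = 0.263).

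For Ryr1 the same measure gave Tmprss13, Tmem178b, Lrat, Hmcn2 and Pnmt, at 1.52 to 1.76, a search added after the Ryr1 values were seen. Lrat, which makes retinyl esters, reached 20.6 CPM in the first A-line HET library, and the G-line HET libraries had 16.0, 16.3 and 17.7 CPM. It lay at 1.37 CPM or below in the other A-line HET libraries, A-line HOM and 2 G-line HOM libraries. The third G-line HOM library had 1.55 CPM, and the WT libraries had 2.23, 3.10 and 6.46 CPM. The 4 libraries with the most Lrat were thus the 4 with the most Ryr1. A likeness over 13 libraries of 5 groups describes these libraries and carries no test.

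The genes near Casq1 that are named here did not show a change of its size. Pea15a held 64.6 to 84.0 CPM in mutant libraries and 60.1 to 62.3 CPM in WT, with 0.42 ± 0.07 in G-line HOM (edgeR, adjusted p = 0.000818) and no call in the other 3 mutant groups. Atp1a4 had a CPM of 0.266 or less in every library and was not tested. Dcaf8, chosen after its values were seen, gave -0.03 in G-line HOM (adjusted p = 0.809).

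Gm17224, a non-coding transcript on the opposite strand that shares 156 exonic bases with Casq1, held 0.950 to 2.80 CPM in all libraries. Whether counting used strand is not given in the sources used here, so reads of the shared bases cannot be assigned to one strand. The Ryr1 partner Gm26604 had no counts in any library, the Asph partner Clvs1 had at most 0.530 CPM, and the Ryr3 partner Aven held 8.46 to 12.8 CPM, above Ryr3 itself. Ryr3 counts could therefore include reads of Aven from their 916 shared exonic bases, which was not tested.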

How the data were processed

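Total RNA of left ventricle was made into Illumina TruSeq total RNA Gold libraries, per the labels' protocols. The submitters' processing notes name bcl2fastq, Trimmomatic 0.39, STAR 2.7.4a and the builds mm39 and GRCm39. Raw counts by gene symbol, whole numbers in 3 tables, were used as the authors deposited them. How reads were counted, with which annotation and strand setting, is not given in the sources used here.

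Groups and replicate numbers came from the titles. Members, the list of 53 related genes and the markers were chosen with earlier results of these data known. Genes with at least the CPM of 10 counts in the median library in 3 libraries and 15 counts in total were kept, 17588 in all. Counts were scaled with TMM factors of edgeR 4.0.16 (R 4.3.3), and CPM were computed here. One robust quasi-likelihood model with a mean per group was fitted to 13 libraries, with 8 residual degrees of freedom and a common biological coefficient of variation of 17.1%. Tests were two-sided, and the Benjamini-Hochberg adjustment ran over every gene kept, with a threshold of 0.05. SEs are the log2 fold change over the root of F, and intervals are 95%. The lone A-line HOM library is assumed to vary like the other groups.

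Isoform shares were compared as log2 odds with 0.5 counts added, by exact permutation over libraries (Python 3.11.15, numpy 2.4.6), adjusted over 20 tests. Exon lengths came from a GRCm38 annotation, promoters from RefSeq on GRCm38.p6. No coordinates are given, as the builds differ.

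Named were the 10 members, the 8 related genes with the smallest adjusted p in G-line HOM against WT, those called in all 4 comparisons with WT, the 5 genes most like Casq1 and its neighbours. Alternatives were DESeq2 1.42.0, RLE size factors, other filters, only the compared groups, a replicate block, omission of ribosomal, mitochondrial, Xist, Y-linked and Ttn counts, other treatments of the shared libraries, leaving out each library, and leaving out those where Myl7 reached 10 CPM (atrial) or Arntl reached 20 CPM (clock).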

Additional observations from a re-analysis of the deposited data

Results flagged for a closer look

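Ryr1 and Jph2 were flagged because the difference between the homozygous and the heterozygous G-line was itself tested and passed. Ryr1 differed by -6.94 (log2) in G-line HOM against G-line HET (edgeR quasi-likelihood test, adjusted p = 0.0229), with 1, 4 and 0 counts in G-line HOM and 318, 266 and 97 in G-line HET. All 3 G-line HET libraries were above all 3 G-line HOM libraries. Jph2 differed by -0.40 in the same comparison (adjusted p = 0.0231), again without overlap. These were 2 of the 10 genes of the unit, where 14.6% of all genes tested passed, so passing there does not set the unit apart. The Ryr1 call held in 17 of 25 alternatives and the Jph2 call in 21 of 25. The A-line has 1 HOM library and gave -3.93 for Ryr1 (adjusted p = 0.999) and 0.13 for Jph2 (adjusted p = 0.999), and whether the lines differ in this was not tested. The difference between A-line HET and G-line HET for Ryr1 was -1.74 (adjusted p = 0.509).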

How the results depend on the processing

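Of 4079 gene results under an alternative, 3693 stayed on the same side of the threshold, 301 lost a call and 85 gained one. None that was called changed sign. Among those called in neither fit, 87 lay on the other side of 0. Depth limits the low-count genes Fkbp1b, Ryr3 and Ryr1. Counted as A-line HOM, the shared libraries left 0 calls against WT in each mutant group. Counted in both groups they left 0 in G-line HET, A-line HOM and A-line HET against WT, where Casq1 still gave 4.61 (adjusted p = 0.0696), 3.44 (adjusted p = 1) and 4.58 (adjusted p = 0.0859). Left out, they gave 2 calls for G-line HOM against WT, 1 for A-line HET against WT and 1 for G-line HOM against G-line HET. In G-line HET against WT, DESeq2 gave 5 calls, no filter 3 and only the compared groups 4, beside 1. In A-line HET against G-line HET, DESeq2 and no filter gave 1 each. Without the atrial libraries 1 call was left in A-line HET against WT and 1 in G-line HOM against G-line HET, and without the clock libraries 0 in that last comparison. Leaving out 1 library at a time gave 3 to 5 calls against WT in G-line HOM, 1 to 3 in G-line HET and 1 to 3 in A-line HET, 0 to 3 in G-line HOM against G-line HET and 0 to 2 in A-line HET against G-line HET. Over the genes kept, same-numbered libraries outside A-line HOM did not clearly deviate together (correlations of -0.27 to 0.15). The main fit therefore did not pair by number. A pairing that touches only some genes could escape such a check. With the number as a replicate block there were 4 calls in G-line HOM against WT and 2 in A-line HET against WT, and the counts of the other 5 comparisons stayed at 1, 1, 2, 0 and 0.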
